A study of Sus scrofa with 20 samples.

Results

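The immediate early genes described here are FOS, FOSB, JUN, JUNB, EGR1, NR4A1, NR4A2, ARC, DUSP1 and IER2, 10 genes taken by their symbols, with no threshold on their values. Of these, 8 had at least 1 probe set on the array, among 13755 gene symbols, with 14 probe sets in all out of 47722 that were not controls. The annotation of the array used here names no probe set for EGR1 or IER2, and both were not analysed here. A total of 12 of the 14 probe sets, from 7 genes, were among the 23861 brightest probe sets, whose mean over the arrays was 5.21 or higher on the log2 scale, and entered the main tests. The 2 others were the FOSB probe set, with a mean of 4.20, and the dimmer NR4A2 probe set, with a mean of 4.60.

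The hypothalami of 20 German Landrace pigs were profiled, 10 with a high-reactive (HR) and 10 with a low-reactive (LR) coping pattern, as judged early in life by how the piglets struggled when restrained on their backs. The study took extreme animals that also differed in haplotype at a region of chromosome 12, so coping pattern and haplotype cannot be told apart. The tissue came from slaughtered animals labelled as adult, each on 1 Affymetrix Porcine Snowball array. The labels name no treatment, and whether HR and LR animals shared slaughter day and handling is not given in the sources used here.

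Immediate early genes are transcribed within minutes of a stimulus without new protein synthesis, through kinase cascades that act on transcription factors such as SRF and CREB already bound to their promoters. In neurons they serve as markers of recent activity, and FOS mapping in the hypothalamus is a standard way to find cells that responded to stress. Their mRNA is short-lived, so the level in a tissue taken at slaughter reflects the last period before death, handling included. In a piece of tissue, more cells with the transcript and more transcript per cell cannot be told apart.

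All values are log2 expression after robust multichip average (RMA) normalisation, and a difference of 1 is a doubling. Array medians were similar, at 5.14 to 5.26. Markers of the labelled tissue were present, among them AVP, the vasopressin gene, with a mean of 12.01, and of 5 pituitary genes 2 were bright enough to be kept, the gene means running between 1.93 for TSHB and 6.19 for LHB. LR replicate 3 had the lowest values of the LR group for the hypothalamic peptide list (8.31) and the hypothalamic transcription factor list (6.01), and the highest for the thalamus list (7.94), against ranges in HR of 8.60 to 9.21, 6.77 to 7.46 and 6.45 to 6.93. The array also carries 69 background control probe sets, made to match no transcript, and their mean per array is meant to measure unspecific signal. That mean was 4.09 ± 0.26 in HR and 4.01 ± 0.17 in LR (SD, n = 10 each), a difference of 0.08 (two-sided permutation test, p = 0.399). It ran between 3.73 and 4.44 in HR and between 3.68 and 4.22 in LR.

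The first comparison asked whether the coping patterns differ in immediate early gene expression in tissue taken at slaughter. No member passed the test between HR and LR animals, with the largest difference, of 0.28 on the log2 scale, in DUSP1. In limma 0 of the 12 probe sets passed an adjusted p of 0.05 in limma, and 0 of all 23861 did (0.0%). At an unadjusted p under 0.05 there were 0 of the 12 member probe sets, against 4.57% of all kept probe sets (1091). The exact rank-sum test also gave 0 past the threshold and 874 of all probe sets at an unadjusted p under 0.05, 1 of them a member, DUSP1. Of these 12 probe sets, 5 averaged higher and 7 lower in HR, with a median difference of -0.01, against 12270 higher, 11591 lower and a median of 0.01 over all kept probe sets. The 95% interval of the difference lay within 0.5 on either side of 0 for 10 of the 12.

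**Figure D1:**
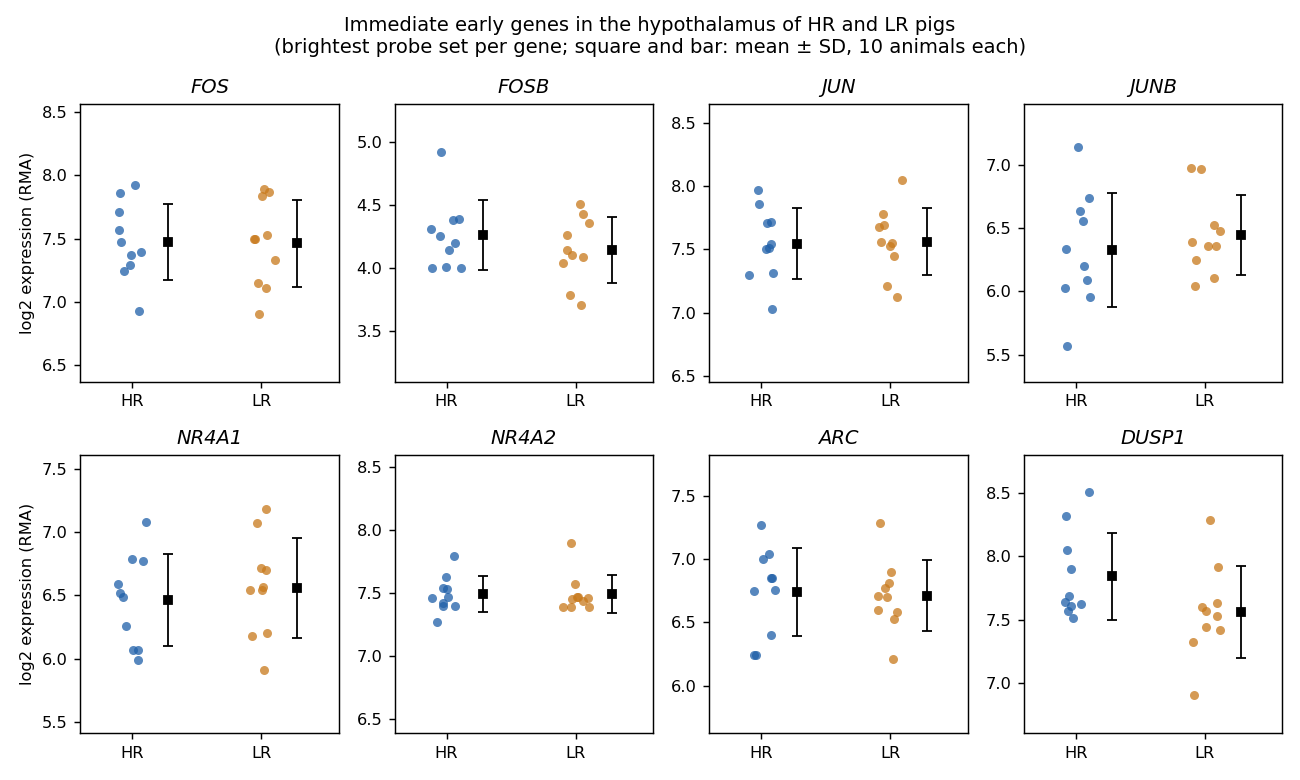
Log2 expression (vertical axis) of the brightest probe set of each of 8 immediate early genes in 10 HR and 10 LR pigs, with 1 point per animal, and a square and bar for the mean ± SD. Every panel spans the same number of log2 units; the groups overlap in all 8, the points of NR4A2 lie closest together, and LR replicate 4 stands above the other NR4A2 values at 7.90.

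FOS, on chromosome 7 (98449508 to 98451971 in RefSeq's Sscrofa11.1 annotation), encodes a partner of the AP-1 transcription factor. Its log2 expression had a lowest value of 6.93, a median of 7.43 and a highest value of 7.92 in HR, against 6.90, 7.50 and 7.89 in LR. The groups covered almost the same range, and the lowest animals were HR replicate 9 and LR replicate 3. The means were 7.47 ± 0.30 in HR and 7.46 ± 0.34 in LR (SD, n = 10 each). The difference was 0.01 ± 0.14 (SE), with a 95% interval of -0.28 to 0.31 and an adjusted p of 0.991 in limma, so that FOS levels over 1.24-fold higher in HR lay outside the interval.

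FOSB, a close relative of FOS on chromosome 6 (51836780 to 51844531), encodes the parent of the stable variant that accumulates with repeated stimulation. Its probe set lay under the brightness limit, at a lowest value of 4.0, a median of 4.23 and a highest of 4.92 in HR, against 3.71, 4.12 and 4.51 in LR. HR replicate 4 stood apart at 4.92, with the next HR animal at 4.39. In the fit without a filter the difference was 0.12 ± 0.12 (adjusted p = 0.926).

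JUN, on chromosome 6 (153686425 to 153687635), encodes the main AP-1 partner of FOS. The brighter of its 2 probe sets had a lowest value of 7.03, a median of 7.53 and a highest of 7.97 in HR, against 7.12, 7.55 and 8.05 in LR. The ranges overlapped almost fully, and LR replicate 5 was the highest animal. The difference was -0.02 ± 0.12 (SE; adjusted p = 0.983), and that of the other probe set was -0.08 ± 0.12 (adjusted p = 0.899).

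JUNB, on chromosome 2 (66214086 to 66219435), encodes an AP-1 partner that can oppose JUN. Its lowest value was 5.57, its median 6.27 and its highest 7.14 in HR, against 6.04, 6.38 and 6.98 in LR. The HR animals were the more spread, with SDs of 0.45 in HR and 0.32 in LR, and 3 of them lay below every LR animal while HR replicate 4 lay above every one. The difference was -0.12 ± 0.17 (SE; adjusted p = 0.896).

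NR4A1 and NR4A2 encode orphan nuclear receptors that bind DNA without a known natural ligand, and NR4A2 also specifies dopamine neurons. NR4A1, on chromosome 5 (17403088 to 17407918), is annotated by RefSeq as a pseudogene in this assembly. Its values had a lowest of 5.99, a median of 6.51 and a highest of 7.08 in HR, against 5.91, 6.55 and 7.18 in LR. The groups overlapped along their whole range, with a difference of -0.10 ± 0.16 (SE; adjusted p = 0.914).

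NR4A2, on chromosome 15 (63487051 to 63506249), was the member with the smallest spread between animals in the values as measured, in its brighter probe set. The brighter probe set had a lowest value of 7.27, a median of 7.47 and a highest of 7.79 in HR, against 7.39, 7.46 and 7.90 in LR. Its SD over the 20 arrays was 0.14 at percentile 1.98 of the SDs of the kept probe sets, whereas FOS with an SD of 0.31 lay at percentile 50.6 and JUNB with 0.38 at percentile 68.7. After the background control mean was regressed out, the SD of this NR4A2 probe set was 0.15 at percentile 15.2. The dimmer ARC probe set was then tighter, at 0.12 and percentile 4.33. The difference was -0.00 ± 0.08 (SE; adjusted p = 0.996), with a 95% interval of -0.17 to 0.17, and the dimmer probe set gave 0.00 ± 0.10 without a filter.

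ARC, on chromosome 4 (1517986 to 1521403), encodes a synaptic protein that controls glutamate receptor traffic and whose mRNA moves into dendrites. The brighter probe set had a lowest value of 6.24, a median of 6.81 and a highest of 7.27 in HR, against 6.21, 6.71 and 7.29 in LR, with a difference of 0.03 ± 0.14 (SE; adjusted p = 0.969). The other ARC probe set averaged 6.18 ± 0.21 in HR and 6.07 ± 0.11 in LR (SD, n = 10 each). Of the 10 HR animals, 5 lay above every LR animal and 1, HR replicate 9, lay below every LR animal. The difference of this probe set was 0.11 ± 0.09 (SE; adjusted p = 0.861), and over the animals the 2 ARC probe sets were only loosely related (Pearson r = 0.40).

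DUSP1, on chromosome 16 (51457924 to 51461095), encodes a phosphatase that switches off the MAP kinases that induce the other members, and its transcription also responds to glucocorticoids. Its brightest probe set gave the largest difference among the members. The lowest value was 7.51, the median 7.67 and the highest 8.51 in HR, against 6.90, 7.55 and 8.29 in LR. In all, 9 of 10 HR animals lay above the LR mean and 4 LR animals below every HR animal, but the ranges overlapped. The difference was 0.28 ± 0.15 (SE), with a 95% interval of -0.04 to 0.60 and an adjusted p of 0.861 in limma (unadjusted 0.0830).

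The 3 other DUSP1 probe sets gave differences of 0.18 ± 0.15, -0.03 ± 0.12 and -0.15 ± 0.19, so the sign was not shared by the probe sets of the gene. Without LR replicate 5, the brightest probe set differed by 0.36 ± 0.14 (unadjusted p = 0.0193, adjusted p = 0.670), and without the 7 arrays whose background mean lay over 1 SD from the average, a setting chosen after seeing the data, by -0.03. The dimmest probe set held LR replicate 5 at 8.40 with the next LR animal at 7.36, and without that animal its difference was 0.02. Both the dimmest probe set and the one with a difference of 0.18 are of a kind that can bind several transcripts.

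**Figure D2:**
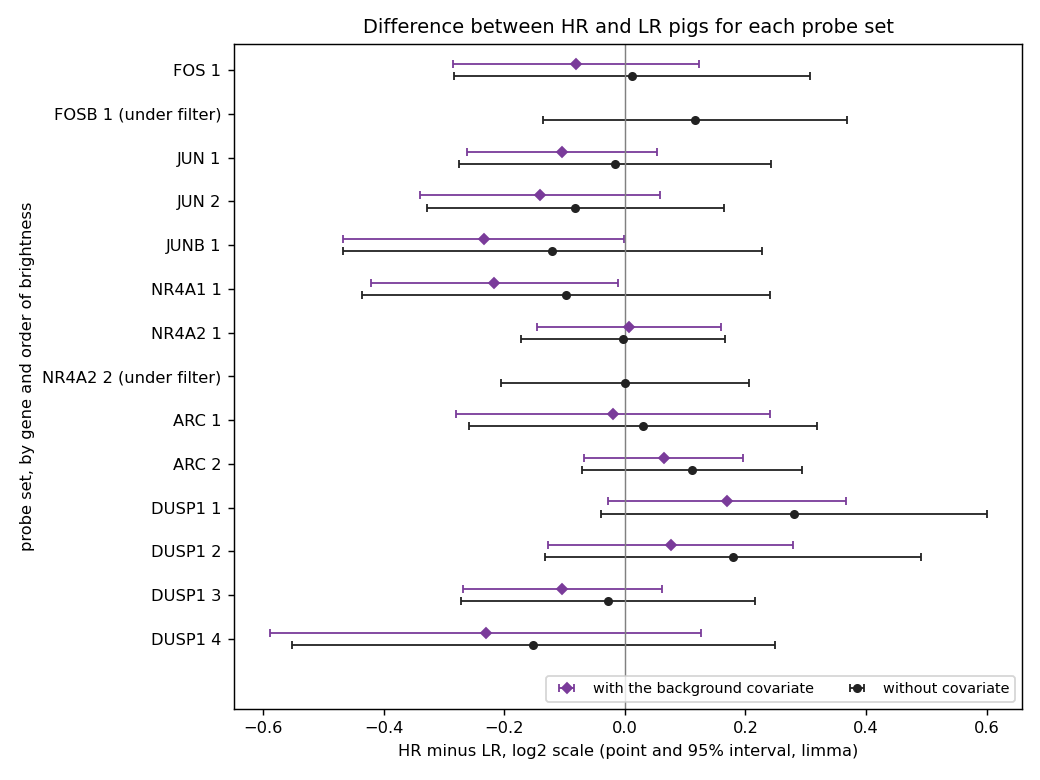
HR minus LR difference on the log2 scale (horizontal axis; point and 95% interval from limma) for the 14 probe sets of 8 genes, numbered by brightness within a gene, without a covariate (circles, all 14) and with the background control mean as a covariate (diamonds, the 12 kept probe sets). Every interval without the covariate covers 0, and with it the intervals of JUNB and NR4A1 end just under 0.

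Most members moved with the background control mean of the array. Of the 12 probe sets, 9 had a Pearson r over 0.5 with the background control mean, which is 75%, against 49.7% of all kept probe sets, and the median r was 0.74 against 0.49. FOS had r = 0.73 (rho = 0.69, permutation p = 2.70e-04, adjusted over 14 probe sets 5.40e-04), JUN 0.81, JUNB 0.71, NR4A1 0.77 and the brightest DUSP1 probe set 0.81. The relation of FOS held within HR (0.75) and within LR (0.80), and without the 2 arrays of most extreme background, HR replicate 5 and LR replicate 8, it was 0.71. The brightest probe sets of the other 3 genes lay under 0.5, with NR4A2 at r = -0.16 (rho = -0.04, permutation p = 0.505), FOSB at 0.46 and ARC at 0.41. The 2 ARC probe sets differed in this, since the other had r = 0.74. The background mean also moved with the marker lists, at r = 0.88 with red blood cell markers (3 of 4 genes kept, mean level 5.81 to 6.77 in HR and 5.43 to 6.68 in LR) and -0.97 with astrocyte markers (6 of 6 genes kept, 9.90 to 11.03 in HR and 10.07 to 11.06 in LR).

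With the background mean as a covariate the median difference between HR and LR moved down, though some differences, such as that of NR4A2, moved up. The median was -0.09 over the 12 member probe sets and -0.02 over all kept probe sets. Of the 12, 8 averaged lower in HR, against 13623 of all 23861 kept probe sets. Again 0 member probe sets and 0 of all probe sets (0.0%) passed the threshold in limma. At an unadjusted p under 0.05, 2 of the 12 (16.7%) were lower in HR, against 5.55% of all kept probe sets lower at that level. These were JUNB, at -0.23 ± 0.11 (unadjusted p = 0.0488), and NR4A1, at -0.22 ± 0.10 (unadjusted p = 0.0392), both with an adjusted p of 0.627. FOS gave -0.08 ± 0.10 (adjusted p = 0.812) and DUSP1 0.17 ± 0.10 (adjusted p = 0.642). A fit without the covariate left out the 7 arrays of extreme background (5 HR and 2 LR), a setting chosen after seeing the data. There JUNB differed by -0.39 ± 0.17 (unadjusted p = 0.0330) and NR4A1 by -0.28 ± 0.16 (unadjusted p = 0.106), both with an adjusted p of 0.9995. Lower in HR at an unadjusted p under 0.05 were 1 of the 12 member probe sets and 305 of all 23861 in that limma fit.

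A second question was how the members vary with one another between animals. Several animals were high or low in most members at once. HR replicate 10 ranked 16 or higher of 20 in 7 of the 8 genes, and HR replicate 4 did so in 6, while LR replicate 3 ranked 5 or lower in 7, and HR replicate 9 and LR replicate 8 in 6 each. These animals also lay at the ends of the background range, with a mean of 4.28 in HR replicate 10 and 4.39 in HR replicate 4, and of 3.76 in LR replicate 3, 3.74 in HR replicate 9 and 3.68 in LR replicate 8.

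Over the 28 pairs of genes, 12 had a permutation p that passed 0.05 after Benjamini-Hochberg adjustment, all of them among the 15 pairs without ARC and NR4A2, and the median r was 0.43. The closest pair was FOS and NR4A1, with r = 0.81 (rho = 0.82, adjusted p = 7.00e-04; 0.67 within HR, 0.94 within LR), which was 0.75 without HR replicate 9 and LR replicate 3. FOS and JUN followed with r = 0.79 (rho = 0.74, adjusted p = 7.00e-04), then JUN and JUNB with r = 0.73 (rho = 0.82, adjusted p = 0.00243). Each of these genes was itself related to the background mean.

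**Figure D3:**
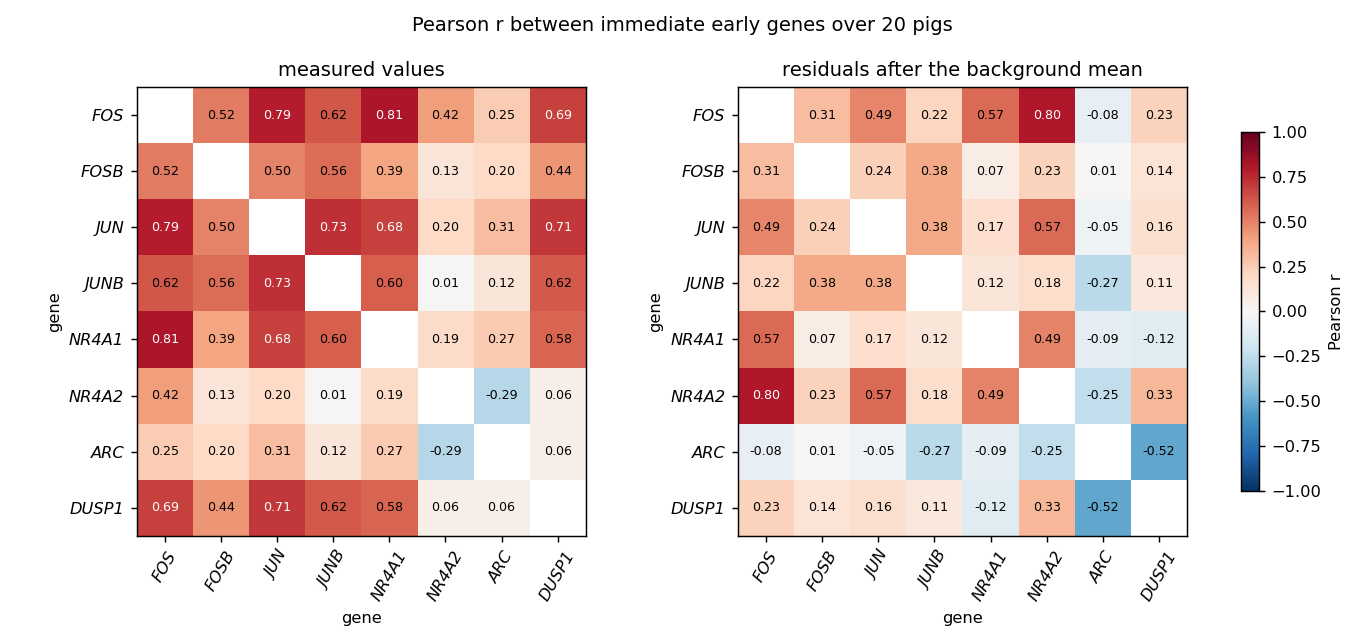
Pearson r over 20 pigs for the 28 pairs of 8 immediate early genes, from measured log2 values (left) and from residuals after the background control mean was regressed out (right); red is positive and blue negative. The block of high values among FOS, JUN, JUNB, NR4A1 and DUSP1 on the left thins out on the right, where FOS and NR4A2 have the highest value, 0.80.

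After the background mean was regressed out of every gene, 1 of 28 pairs passed. FOS and NR4A2 had r = 0.80 (rho = 0.77, permutation p = 1.00e-05, the smallest the permutations can give, adjusted p = 2.80e-04). Before the background was taken out the same pair had r = 0.42 (rho = 0.50, adjusted p = 0.123). The relation held within HR (r = 0.84) and within LR (r = 0.80). In residuals, LR replicate 4 was highest in both genes, at 0.45 for FOS and 0.40 for NR4A2, followed by HR replicate 8 at 0.34 and 0.27, and HR replicate 7 was the lowest for NR4A2 at -0.21, with FOS at -0.24.

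These 2 animals carry part of the relation. Without HR replicate 8 and LR replicate 4, both picked after seeing the data, r was 0.62 (n = 18, permutation p = 0.00536). Within HR without replicate 8 it was 0.71 (n = 9, exact permutation p = 0.0297), and within LR without replicate 4 it was 0.66 (n = 9, exact permutation p = 0.0468). These p-values were not adjusted, and the residuals came from the background fit to all arrays. Leaving out 1 animal at a time gave r between 0.72 and 0.83.

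Other pairs in the residuals did not pass. FOS and NR4A1 had r = 0.57 (rho = 0.39, adjusted p = 0.0937), with 0.87 within LR and -0.13 within HR, a difference that was not tested. JUN and NR4A2 had r = 0.57 (rho = 0.54, adjusted p = 0.0937). ARC and DUSP1 ran in opposite directions, with r = -0.52 (rho = -0.49, adjusted p = 0.130).

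**Figure D4:**
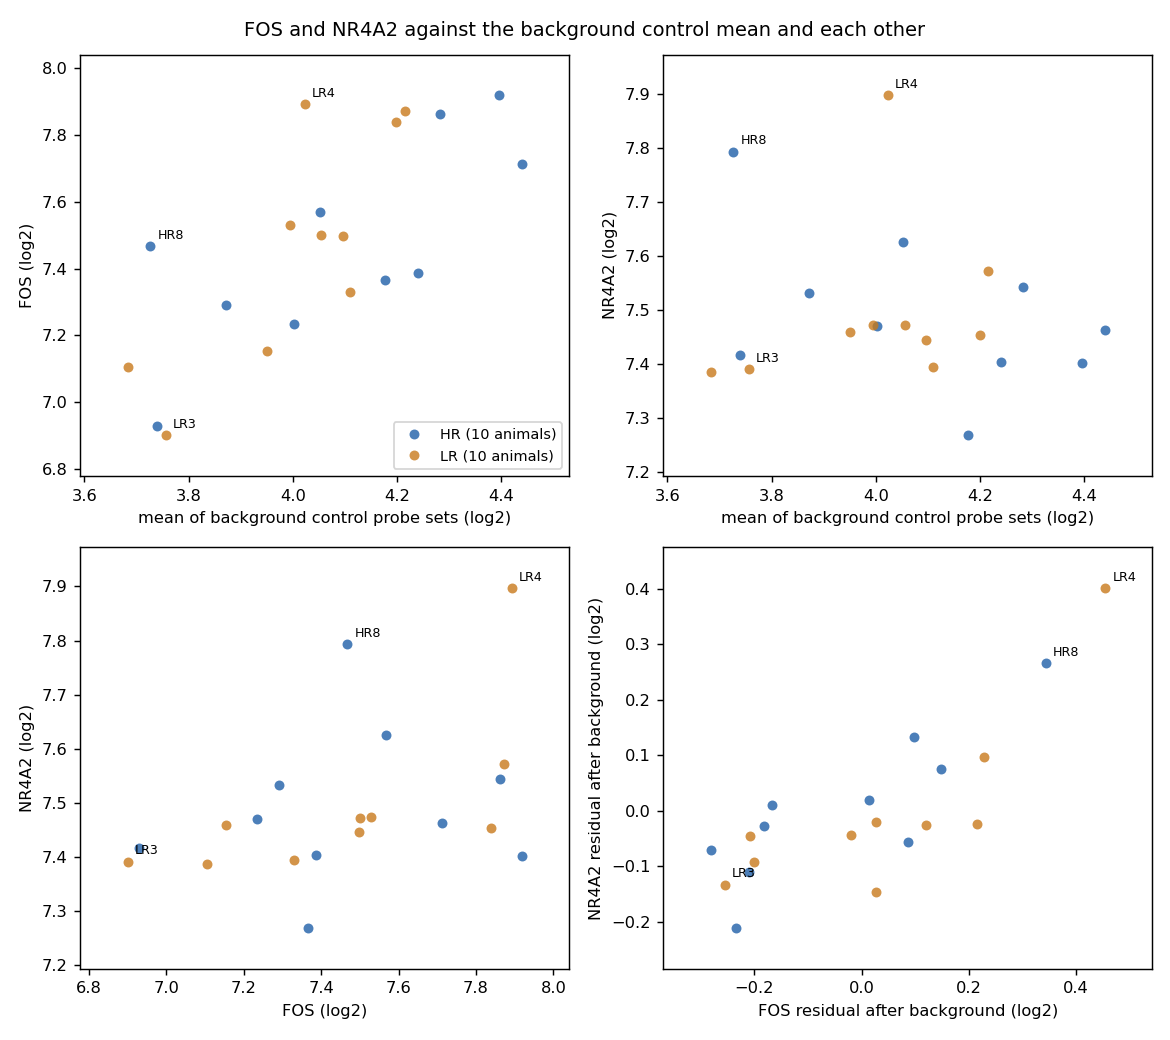
FOS and NR4A2 log2 expression in 10 HR and 10 LR pigs against the background control mean (top), against each other (bottom left), and as residuals after the background mean (bottom right). FOS climbs with the background (r = 0.73) and NR4A2 does not (r = -0.16), and the residuals line up (r = 0.80) with LR replicate 4 and HR replicate 8 at the upper end.

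The relation to FOS was then fitted for every kept probe set in limma, given group and background. Of 23860 probe sets, 0 passed the threshold (0.0%; smallest adjusted p 0.649), and 1787 had an unadjusted p under 0.05. Positive slopes at that level were found in 2 of the 11 other member probe sets (18.2%), against 5.32% of all. NR4A2 had a slope of 0.55 ± 0.13 (SE) per unit of FOS, a partial r of 0.82 and an unadjusted p of 4.58e-04 (adjusted p = 0.649). It was rank 2 of 23860 by partial r and rank 10 by the limma p. The dimmer NR4A2 probe set did not follow FOS in the same way, with a partial r of 0.19 in the fit without a filter (unadjusted p = 0.443), and the 2 NR4A2 probe sets had r = 0.40 with each other (rho = 0.46, permutation p = 0.0808), so the relation rests on 1 probe set of the gene. NR4A1 had a slope of 0.55 ± 0.21 and a partial r of 0.55 (unadjusted p = 0.0156, adjusted p = 0.649). In all, 9 of the 11 had a positive partial r with a median of 0.34, against 13734 of 23860 and a median of 0.06. The 2 ARC probe sets were negative, at -0.09 and -0.31.

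Without the background covariate, 16268 of all probe sets passed the threshold. Of the member probe sets, 8 of 11 passed with a positive slope (72.7%), against 41.7% of all, with a median partial r of 0.65 against 0.38. NR4A2 and both ARC probe sets were the 3 that did not.

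The genes with a pattern most like that of FOS, by partial r over the 20 animals given group and background, were TPST2 (0.84), a protein tyrosine sulfotransferase, then TOX2 (0.78), SEC61A1 (0.78), MAGEF1 (0.76), PIM1 (0.75), CPNE1 (0.75), SOX12 (0.74), KLHDC7A (0.73), CBLN3 (0.73) and DAG1 (0.72). SEC61A1 encodes a core subunit of the protein channel of the endoplasmic reticulum, PIM1 a serine/threonine kinase and DAG1 dystroglycan. The KLHDC7A value came from its only kept probe set, which is named after a mouse microRNA. The most negative were PLTP (-0.77), KIAA0141 (-0.75), GATA3 (-0.73), B3GNT7 (-0.71) and GHRHR (-0.71), the last of which encodes the growth hormone-releasing hormone receptor. All 15 had an adjusted p of 0.649 in limma, and the 5 negative ones had positive values, 0.12 to 0.33, when background was not in the fit. Other probe sets of these genes did not always follow. On the positive side TOX2 had a probe set at 0.15 and CPNE1 at -0.19. On the negative side PLTP had a probe set at 0.53, B3GNT7 at 0.25 and GATA3 at -0.05. The values given first for SEC61A1, MAGEF1, CPNE1 and GATA3 came from probe sets of a kind that can bind several transcripts.

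Other immediate early transcription factors were set beside the members. Of 17 on the list, 12 were kept, 9 averaged higher and 3 lower in HR, with a median of 0.07 (0.00 over all 10317 genes), and 0 had an unadjusted p under 0.05, against 4.19% of all genes. EGR4, a zinc finger factor of the EGR family, differed by 0.22 ± 0.17, SRF, which binds the FOS promoter, by 0.15 ± 0.13, and KLF6 by -0.23 ± 0.14 (SE; all adjusted p of 0.861 to 0.864). With the background covariate 5 were higher and 7 lower. EGR4 was the 1 of 12 (8.33%, against 5.72% of all genes) with a positive relation to FOS at an unadjusted p under 0.05 (partial r = 0.52).

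Among 32 other effectors that activity induces, 24 were kept, with 14 higher and 10 lower in HR and a median of 0.03. Only RGS2, which dampens G protein signalling, reached an unadjusted p under 0.05 (4.17% of the 24, against 4.19% of all genes). RGS2 differed by -0.34 ± 0.15 (SE; unadjusted p = 0.0361, adjusted p = 0.861 in limma), with 2 of 10 HR animals above the LR mean. With the background covariate RGS2 differed by -0.29 ± 0.14 (unadjusted p = 0.0507). SGK1, a kinase induced by glucocorticoids, differed by -0.29 ± 0.14 (unadjusted p = 0.0521), and PER1, a clock gene that stress also induces, by 0.13 ± 0.14. Of these 24 genes, 21 (87.5%) had a positive partial r with FOS, against 59.0% of all genes. A positive slope at an unadjusted p under 0.05 was found in 7 (29.2%), against 590 of 10316 genes (5.72%). IER5, an early response gene, had a partial r of 0.69, PLK3, a stress kinase, of 0.64 and GADD45B, a growth arrest gene, of 0.58, and 0 of the 24 passed after adjustment.

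The last list held the kinases and factors upstream of the members. Of 30 listed, 20 were kept, 9 averaged higher and 11 lower in HR with a median of -0.07, and 0 had an unadjusted p under 0.05. MAPK14, the p38 alpha kinase, differed by -0.26 ± 0.14 and ELK1, an SRF partner, by 0.14 ± 0.14. In the relation to FOS, 13 of 20 (65%) were positive, against 59.0% of all genes. The median partial r was 0.10, against 0.07 over all genes, and 0 of the 20 had an unadjusted p under 0.05. MAPK3, the ERK1 kinase, had 0.46 and CREB1, the cAMP response factor, had -0.44.

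Before the background mean was taken out, FOS moved with several of the 10 marker lists, at r = 0.78 with red blood cells, -0.78 with astrocytes, 0.73 with hypothalamic peptides and -0.68 with neurons (20 animals, given as a description). The background mean moved with the same lists (0.88, -0.97, 0.83 and -0.81 in that order), so regressing it out also takes out what the lists share with it, and cell composition and unspecific signal cannot be told apart here. In the FOS residuals after the background mean, no list had an adjusted p under 0.05 over the 10 lists (smallest adjusted p 0.298). By Pearson r the first 3 were red blood cells (r = 0.41, rho = 0.42, permutation p = 0.0736), thalamus (r = -0.39, rho = -0.38, permutation p = 0.0811) and astrocytes (r = -0.39, rho = -0.43, permutation p = 0.0915), and astrocytes had the largest rho (permutation p of rho = 0.0564). Thalamus was at -0.30 without LR replicate 3.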

How the data were processed

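RNA of 20 hypothalami (10 HR and 10 LR pigs) was hybridised to 1 array per animal. The authors processed the scans with GCOS 1.1.1 and deposited log2 values after RMA for 47845 probe sets. RMA equalises the distributions of the arrays, so a shift of most transcripts cannot be seen. The detection filter of the study was not applied to this table, and depth has no counterpart on arrays, where the number of arrays limits precision. Sex and hybridisation batch are not in the labels and were not used here.

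After 123 control probe sets were set aside, the 50% of higher mean were kept. Gene symbols came from the array annotation (26426 probe sets with 1 symbol), and positions from RefSeq's Sscrofa11.1 table. The deposited table has no coordinates. HR and LR were compared with limma 3.58.1 (lmFit, eBayes) in R 4.3.3, with Benjamini-Hochberg adjustment over all kept probe sets and a threshold of 0.05. The same fit, with group and the background control mean as covariates, gave the relation to FOS. Correlations were tested with 100000 permutations (Python 3.11.15, NumPy 2.4.6, SciPy 1.17.1). The script was tested on simulated data. Alternatives covered the filter, background covariate, normalisation, array weights, a rank test and leaving out arrays. Animals are the replicates, and their numbers only name them.

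The members and lists were chosen with earlier results of these data known, although the rule for members uses gene symbols alone. Named are all probe sets of the members, up to 3 genes of smallest p per direction from each list, and the 10 genes most positively and 5 most negatively related to FOS. The text gives some of the list genes only.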

Additional observations from a re-analysis of the deposited data

Results flagged for a closer look

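Among 122 groups of 10 values, 6 held an animal that stood apart from the others of its group by a wide gap. Chance alone gives about 1 in 20 such groups, so the count is near the share that chance gives. For FOSB this was HR replicate 4, at a log2 expression of 4.92 with the next HR animal at 4.39. For NR4A2 it was LR replicate 4, at 7.90 with the next LR animal at 7.57, the animal that also had the highest FOS residual. For the dimmest DUSP1 probe set it was LR replicate 5, at 8.40 against 7.36 for the next. For EGR3, another EGR family factor, HR replicate 8 was lowest at 4.39, with the next HR animal at 5.25, and for MEF2A, a transcription factor that binds activity-regulated promoters, LR replicate 3 was highest at 9.76, with the next at 8.60. For GHRHR, one of the genes that ran against FOS, LR replicate 6 was highest at 6.21, with the next at 5.96. The causes were not tested.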

How the results depend on the processing

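The number of member probe sets past the threshold between HR and LR was 0 in every setting run, as was that of all probe sets. At an unadjusted p under 0.05 the count of members was 0 as reported, 2 with the background covariate, 1 with the rank-sum test and 1 without the 7 arrays of extreme background (a setting chosen after seeing the data), and it ran between 0 and 1 when 1 array was left out. Of 12 member probe sets these were the counts, against 1091, 1882, 874 and 522 of all 23861 kept probe sets in the first 4 settings, in that order. The background mean differed by 0.05 to 0.13 when 1 array was left out. Related to FOS were 0 probe sets and 0 members as reported, also with any 1 array left out, but 16268 and 8 without the background covariate. Of the pairs of members 12 passed, 1 after the background mean was regressed out, 10 by rank correlation and 10 to 14 when 1 array was left out. Of 232 values of 30 HR minus LR differences under the other settings, 17 had the opposite sign and 0 passed the threshold.

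With the background covariate these were FOS at -0.0807, NR4A2 at 0.00656, ARC at -0.0195, MEF2D at -0.000566 and CRTC2 at -0.00473. With array weights FOS was at -0.0395. Without the arrays of extreme background FOS was at -0.207, the brightest DUSP1 probe set at -0.0269, the next at -0.0571, EGR4 at -0.0148 and PLK3 at -0.0481. With a repeated quantile normalisation JUN was at 0.0152, NR4A2 at 0.0310 and the third DUSP1 probe set at 0.00623, and with arrays centred on their median JUN was at 0.00415, NR4A2 at 0.0179 and KLF4 at 0.0116. When 1 array was left out, the difference changed sign for 8 of the 30. FOS ran between -0.0507 (without LR replicate 3) and 0.0723 (without HR replicate 9), JUN between -0.0652 and 0.0406, NR4A2 between -0.0361 (without HR replicate 8) and 0.0421 (without LR replicate 4), ARC between -0.0283 and 0.0950, the third DUSP1 probe set between -0.0833 and 0.00976, the dimmest between -0.210 and 0.0170 (without LR replicate 5), ATF3 between -0.111 and 0.0168, and KLF4 between -0.0615 and 0.0461.

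The partial r with FOS turned over without the background covariate for the brighter ARC probe set (0.25), the other (0.40), MAFF (0.54), KLF4 (0.52), EGR3 (0.52), GADD45G (0.33), ERRFI1 (0.59), CDKN1A (0.40), PLTP (0.12), KIAA0141 (0.13), GATA3 (0.22), B3GNT7 (0.33) and GHRHR (0.25). It also turned for EGR3 on ranks (0.24) and without the arrays of extreme background (0.28), for JUNB without those arrays (-0.0495), and for CDKN1A without the group term (0.00255) and on ranks (0.0169). When 1 array was left out it changed sign for the brighter ARC probe set (-0.222 to 0.0607), EGR3 (-0.255 to 0.355) and CDKN1A (-0.212 to 0.145). Beyond the background term, already in the fit, the cause was not tested. No paired analysis was possible because the labels give the animals no shared replicate numbers.

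FOSB and the dimmer NR4A2 probe set were fitted without a filter alone. With 10 animals a group, the 95% interval of FOS was about 0.3 wide on either side of 0.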
